A study of Mus musculus with 9 samples.

Results

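The genes described here are the ligands, receptors, antagonists and nearest intracellular readouts of Wnt signalling, measured in mouse back skin. They were chosen by name, with earlier results of these data known. Of 44 listed genes 42 had a row in the deposited table, out of 19505 named genes in all. The other listed genes, Tcf7 and Ctnnb1, were not analysed here. The measured genes were 15 Wnt ligands, 12 receptors (10 Frizzled genes with Lrp5 and Lrp6), 3 R-spondins, 8 secreted antagonists and 4 intracellular genes. Each of the 42 had a single feature on the array, and none shared its values with another gene.

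All samples came from C57BL/6J mice aged 8 weeks. Hair was removed from the back, and 5% imiquimod (IMQ) cream, a Toll-like receptor agonist that induces a psoriasis-like dermatitis, was then applied daily for 7 days in both groups. The stretch group (IMQ+F, n = 5) had a glued plastic traction device lengthened by 10 mm on the first day, and the no-stretch group (IMQ+N, n = 4) was treated without stretch. Whether the no-stretch skin carried the glued device is not said, so device and stretch cannot be told apart. Nothing in the labels ties each sample to its own mouse, so the spread behind each p-value is that between samples and could be technical. Skin without imiquimod was not analysed here.

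Wnt proteins are secreted lipid-modified ligands that bind Frizzled receptors together with the co-receptors Lrp5 or Lrp6. In the canonical branch this binding stabilizes beta-catenin, which then works with TCF and LEF factors on target genes, while other branches act on cell polarity and calcium. R-spondins keep Frizzled receptors at the surface, whereas secreted frizzled-related proteins, Dickkopf proteins and Wif1 block the ligands or the co-receptors. In skin, Wnt signalling is known for hair follicle formation and the hair growth cycle, the upkeep of the basal epidermis and the behaviour of dermal fibroblasts.

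The promoters of 4 genes that were lower with stretch at an unadjusted p under 0.05 are shown as examples. None of the 4 passed after adjustment over all genes. Wnt2, Wif1 and Dkk2 had the smallest p-values of the members. Fzd1 was the only gene of the 7 such genes with a promoter entry that held a TCF/LEF core, which 16% of all promoters held. Each promoter shown runs from 250 bases before to 50 bases after the annotated start and comes from RefSeq, build GRCm38.p6: Wnt2 at chr6:18030396-18030695 on the minus strand, Wif1 at chr10:121033754-121034053 on the plus strand, Dkk2 at chr3:132085042-132085341 on the plus strand and Fzd1 at chr5:4758167-4758466 on the minus strand. Capitals mark a match to the TCF/LEF core.
Wnt2: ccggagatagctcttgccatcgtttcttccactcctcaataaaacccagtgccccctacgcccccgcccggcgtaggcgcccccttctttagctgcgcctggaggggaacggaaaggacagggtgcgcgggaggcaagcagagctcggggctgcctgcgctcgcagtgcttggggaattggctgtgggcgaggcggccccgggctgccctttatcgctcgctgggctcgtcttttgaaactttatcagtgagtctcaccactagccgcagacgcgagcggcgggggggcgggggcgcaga
Wif1: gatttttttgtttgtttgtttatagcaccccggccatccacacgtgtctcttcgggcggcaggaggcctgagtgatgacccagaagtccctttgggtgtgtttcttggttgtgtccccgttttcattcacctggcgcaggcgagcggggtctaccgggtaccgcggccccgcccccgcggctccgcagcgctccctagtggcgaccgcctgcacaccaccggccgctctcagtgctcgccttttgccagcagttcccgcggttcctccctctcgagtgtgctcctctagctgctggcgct
Dkk2: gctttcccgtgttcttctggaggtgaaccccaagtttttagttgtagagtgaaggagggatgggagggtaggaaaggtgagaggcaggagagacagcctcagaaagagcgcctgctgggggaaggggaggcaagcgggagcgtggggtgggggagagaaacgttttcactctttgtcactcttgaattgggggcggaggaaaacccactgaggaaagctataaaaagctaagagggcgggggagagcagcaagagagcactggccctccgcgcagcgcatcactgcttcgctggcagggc
Fzd1: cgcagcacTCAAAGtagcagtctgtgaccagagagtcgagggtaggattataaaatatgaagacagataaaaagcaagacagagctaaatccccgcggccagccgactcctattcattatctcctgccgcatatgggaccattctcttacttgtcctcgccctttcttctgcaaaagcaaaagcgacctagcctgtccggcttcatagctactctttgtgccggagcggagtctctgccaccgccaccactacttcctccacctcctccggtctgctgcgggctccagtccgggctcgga

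Cores searched on both strands were CTTTGA for TCF and LEF factors, TGANTCA for AP-1 and CATTCC for TEAD factors, and none of these contains another. The TCF/LEF core was found in 5 of the 34 promoter entries of measured members (28 genes had an entry), against 16% of all 32851 promoters of this length. The members were Dkk1, Fzd1, Lef1, Wnt11 and Wnt5b. The AP-1 and TEAD cores were each found in 1 of the 34 entries, both times of Wnt5b, against 7.81% and 14.7% of all promoters. The 7 entries of members with p under 0.05 had 54% to 77.7% G and C bases, against a median of 52.7% over all promoters. The part of base content in these counts was not tested. These matches describe letters in a window and are not binding sites.

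The values were log2 RMA expression, with array medians of 5.814 to 5.858 with stretch and 5.867 to 5.986 without. Every stretched array thus had a lower median than every other array. The array means of gene lists given below are of these values without further scaling. The number of arrays limits the precision, and the standard error of a log2 change was 0.21 in the median gene. Across genes, no-stretch replicate 3 correlated least with the rest (median 0.9749, against 0.9802 to 0.9873), and it and stretch replicate 1 had the lowest array weights (0.58 and 0.55). The keratin genes Krt5, Krt14, Krt1 and Krt10 and the collagen genes Col1a1 and Col3a1 all had mean levels at or above percentile 99.1 of all genes, which fits the labelled tissue. Over all genes 48 passed limma's test at a Benjamini-Hochberg adjusted p of 0.05 (0.246% of those tested), 32 lower and 16 higher with stretch. That count rested on single arrays: leaving out 1 stretched array gave 2 (replicate 2), 13 (replicate 5), 22 (replicate 4) and 195 genes (replicate 3). Leaving out 1 no-stretch array gave 2 (replicate 3), 6 (replicate 1), 8 (replicate 2) and 75 genes (replicate 4). Leaving out stretch replicate 1 gave 71.

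No member passed that threshold. Whole skin was profiled, so fewer cells of a type and less RNA per cell cannot be told apart for any of these genes. Without adjustment 9 of the 42 had a limma p under 0.05, all of them lower with stretch: Wnt2, Wnt10b, Fzd1, Fzd3, Fzd5, Fzd10, Lrp6, Dkk2 and Wif1. Among all genes 6.07% were lower and 6.92% higher at that p. The log2 change of a member was below 0 in 33 of 42, against 50.4% of all genes. Under quantile normalization or median centring it was below 0 in 31, against 47.7% and 41.2% of all genes. The median was -0.21 for the members and -0.0034 for all genes. Groups did not overlap, with all stretched arrays below all others, for 3 members (Wnt2, Lrp6 and Wif1), where 2.15% of all genes behaved so. Without the pair of low-weight arrays 28 of 42 changes were below 0, against 49.4% of all genes in that fit. There 7 members were lower at p under 0.05 (4.84% of all genes), 6 of them among the 9. Wnt10b, Fzd1 and Fzd5 left the set and Nkd2 entered it.

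**Figure D1:**
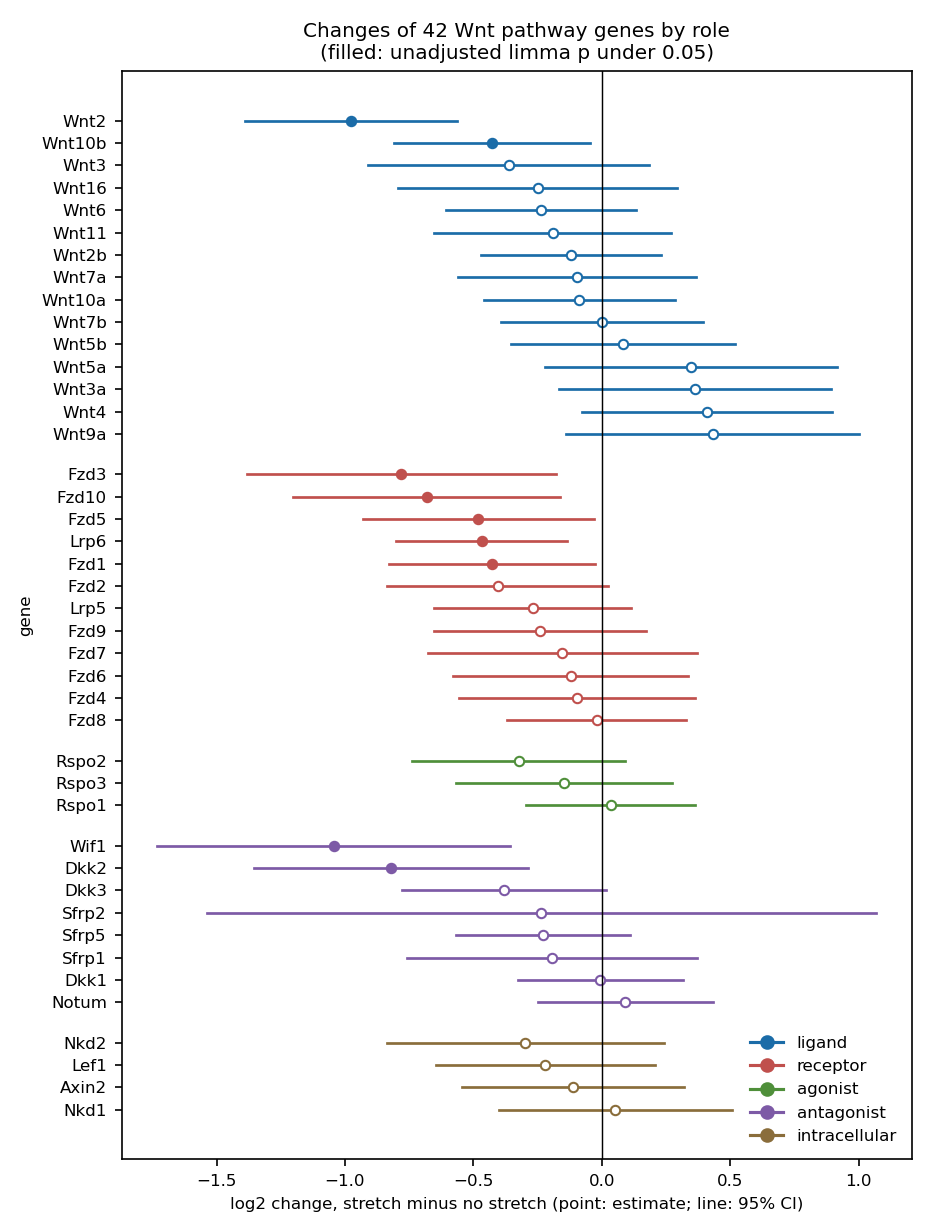
Log2 change (stretch minus no stretch, x axis) of the 42 measured genes, grouped by role and sorted within it; lines are 95% confidence intervals, and filled points have an unadjusted limma p under 0.05. All 12 receptors lie left of 0, against 50.4% of all genes. However, Fzd4, Fzd6, Fzd7 and Fzd8 were above 0 in at least 1 other setting (up to 0.088, 0.039, 0.050 and 0.08). Ligands lie between -0.98 and 0.43.

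Among the ligands, Wnt2 differed most. Wnt2 is a canonical ligand known from lung and placenta development. Its log2 level was 5.14, 4.94, 5.12, 4.86 and 4.93 in stretch replicates 1 to 5, and 5.71, 5.61, 6.19 and 6.39 in no-stretch replicates 1 to 4. Every stretched array was below every other one, and the stretched arrays lay close together (SD 0.125 against 0.375). The log2 change was -0.98 with a standard error of 0.19 (95% confidence interval -1.39 to -0.56), which is 1.97-fold lower. Its limma adjusted p over all genes was 0.055, the smallest of the 42, and fell below the threshold without stretch replicate 3 (0.0494), while leaving out any other array gave values from 0.0692 to 0.171.

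Wnt10b, a canonical ligand of the growing hair follicle that also restrains fat cell formation, was the other ligand with a p under 0.05. Its log2 level was 3.02, 3.54, 3.33, 3.16 and 3.32 with stretch and 3.51, 4.07, 3.60 and 3.63 without. Of the stretched arrays 4 lay below the lowest no-stretch array, with replicate 2 as the exception. Its log2 change of -0.43 had a standard error of 0.17 (limma adjusted p = 0.33). Its mean level stood at percentile 18.3 of all genes, and its p was under 0.05 in 6 of the 9 fits that left out 1 array.

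The remaining 13 ligands had log2 changes between -0.36 (Wnt3) and 0.43 (Wnt9a), none at p under 0.05. Ligands with the higher values with stretch were Wnt9a, Wnt4 and Wnt5a, and Wnt3a among the dim ones. Wnt4, a ligand of many epithelia, was at 7.92, 8.52, 8.89, 8.15 and 8.92 with stretch and at 8.14, 8.09, 7.87 and 8.18 without. Stretch replicates 2, 3 and 5 lay above all no-stretch arrays, and replicates 1 and 4 lay among them. Its log2 change was 0.41 (95% confidence interval -0.08 to 0.90, limma adjusted p = 0.475). Without stretch replicate 1 it was 0.55, with an unadjusted p under 0.05 and limma adjusted p = 0.293.

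Wnt5a, the main ligand of the beta-catenin-independent branch, showed a difference of 0.35 (95% confidence interval -0.22 to 0.92). Stretch replicate 1 was at 8.86, and the other stretched arrays lay between 7.37 and 7.96, against 7.39 to 7.83 without stretch. Leaving out that array reduced the change to 0.13. Wnt9a, known from joint development and with a change of 0.43, likewise had a single high array, stretch replicate 2 at 5.31, with the other stretched arrays between 3.94 and 4.51 and the no-stretch arrays between 3.86 and 4.07. Without it the change was 0.20. Wnt3a, a ligand widely used to activate the canonical branch, was at 4.504 and 4.11 in stretch replicates 1 and 4 and between 3.15 and 3.74 on all other arrays.

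Wnt3, a ligand of the hair follicle, had the opposite pattern: no-stretch replicate 1 was at 4.74, and all other arrays lay between 3.26 and 3.91. Without that array its change was -0.09. Wnt16, a ligand known from bone and skin, had a change of -0.25, and Wnt10a, which is needed for skin appendages and teeth, of -0.09. Wnt7b, a ligand of epithelia, was at 4.45 in both groups. Wnt11, a ligand of the polarity branch, had a change of -0.19, and Wnt7a, known from limb patterning, of -0.10. Wnt6 and Wnt2b had changes of -0.24 and -0.12, and Wnt5b, a relative of Wnt5a, of 0.08. Of the 15 ligands 8 had mean levels among the lowest 25% of all genes. Detection calls were not used here, so for these ligands a difference that does not appear is no sign of a constant level.

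All 12 receptor genes had a log2 change below 0, against 50.4% of all genes. The median was -0.34 and the range -0.78 to -0.02, although 4 of them turned sign in other settings. Fzd8 was at 0.08 under quantile normalization and 0.05 under median centring. Fzd4 was at 0.088 and Fzd7 at 0.050 without the pair of low-weight arrays, and Fzd6 at 0.039 without no-stretch replicate 1. Fzd4 and Fzd7 were also above 0 without stretch replicate 1 alone (0.041 and 0.011). At p under 0.05 there were 5 of the 12, all lower (6.07% of all genes): Lrp6, Fzd10, Fzd3, Fzd5 and Fzd1. On each array the mean of the 12 genes lay between 7.08 and 7.31 with stretch and between 7.41 and 7.67 without, so the groups did not overlap. The means of the antagonists, the other pathway genes and several cell type marker lists were also apart, as given below. No receptor passed over all genes, the smallest adjusted p being 0.22 (Lrp6).

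Lrp6, the co-receptor that is phosphorylated when a canonical Wnt binds, was at 9.98, 9.90, 9.70, 9.60 and 9.98 with stretch and at 10.37, 10.31, 10.13 and 10.39 without. The stretched arrays were all lower, but the gap between the groups was smaller than the range within either. Its log2 change was -0.47 with a standard error of 0.15 (1.38-fold lower, limma adjusted p = 0.22). Its p was under 0.05 in all 9 fits that left out 1 array. Lrp5, its close relative known from the control of bone mass, had a change of -0.27 (95% confidence interval -0.65 to 0.11).

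Fzd3, a receptor known with Fzd6 for the polarity of axons and hairs, was at 5.01, 5.65, 5.22, 4.69 and 4.61 with stretch and at 6.33, 6.196, 5.40 and 5.34 without. All stretched arrays but replicate 2 lay below the lowest no-stretch array, and the no-stretch arrays fell into a higher and a lower pair. Fzd3 differed by -0.78 on the log2 scale (standard error 0.28, 1.72-fold lower, limma adjusted p = 0.25).

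Fzd10, a receptor used by canonical ligands, was at 5.83, 5.40, 6.35, 5.37 and 5.63 with stretch and at 6.38, 6.88, 6.28 and 6.04 without. Stretch replicate 3 lay inside the no-stretch range, and the other stretched arrays below it. The difference was -0.68 on the log2 scale with a standard error of 0.24 (limma adjusted p = 0.25). Without stretch replicate 3 the change was -0.84 and the adjusted p 0.098.

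Fzd5, a receptor of epithelia such as the gut, was at 4.93, 5.65, 5.19, 5.11 and 5.15 with stretch and at 5.38, 6.01, 5.97 and 5.39 without. Here too stretch replicate 2 was the one stretched array inside the no-stretch range. The difference was -0.48 on the log2 scale, with a standard error of 0.21 (limma adjusted p = 0.35). Its p was under 0.05 in 3 of the 9 fits that left out 1 array.

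Fzd1, whose promoter holds the TCF/LEF core shown above, was at 8.69, 8.40, 8.74, 8.69 and 8.37 with stretch and at 9.25, 8.66, 9.31 and 8.81 without. No-stretch replicate 2 lay among the stretched arrays and the other 3 above all of them. Its log2 change was -0.43 with a standard error of 0.18 (limma adjusted p = 0.35), and its p was under 0.05 in 5 of the 9 fits that left out 1 array.

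The remaining Frizzled genes had log2 changes of -0.41 (Fzd2), -0.24 (Fzd9), -0.15 (Fzd7), -0.12 (Fzd6), -0.10 (Fzd4) and -0.02 (Fzd8). Fzd2 lay between 7.40 and 8.18 with stretch and between 7.97 and 8.56 without, and its limma adjusted p was 0.41. Fzd6, the receptor that orients hair follicles in the mouse, was at 10.23 and 10.01 in no-stretch replicates 1 and 2 but at 9.46 and 9.30 in replicates 3 and 4, which lay within or below the stretched range (9.38 to 9.78). Fzd4, the receptor of norrin in retinal vessels, spread from 6.99 to 8.06 with stretch. The 95% confidence interval of Fzd8 ran from -0.37 to 0.33.

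**Figure D2:**
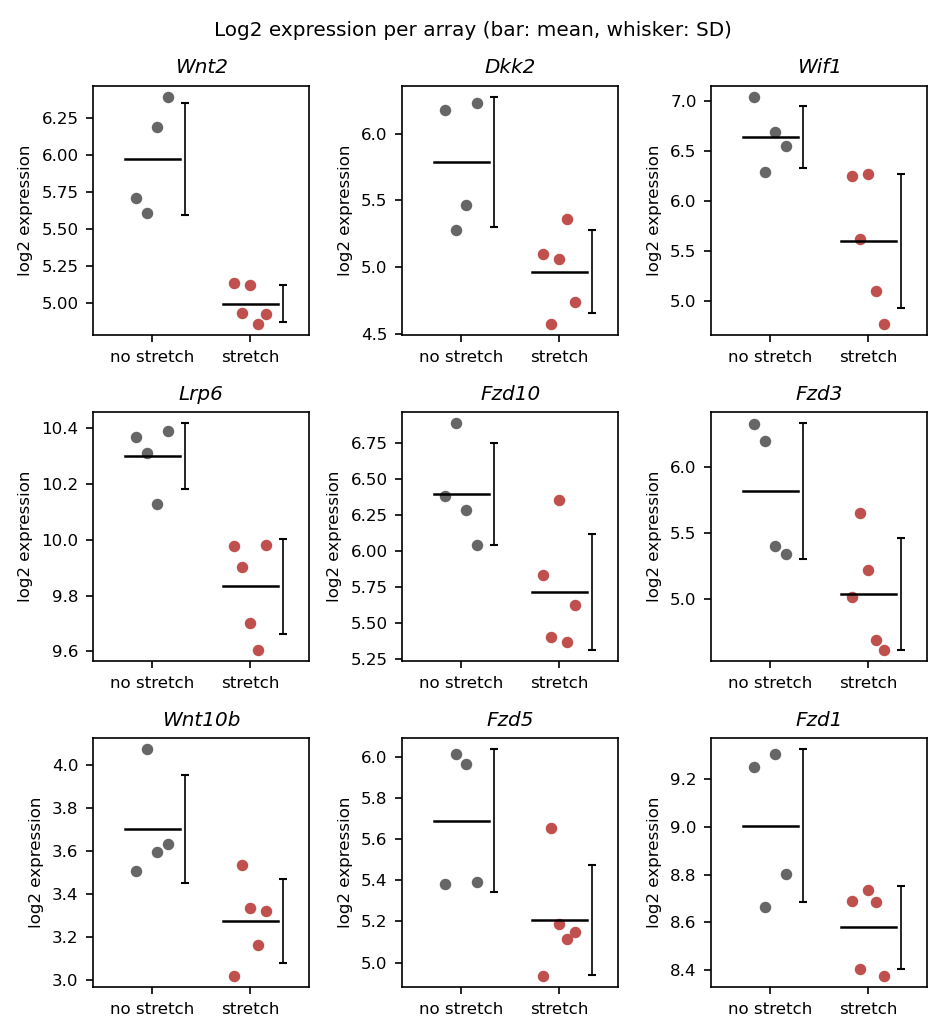
Log2 expression on each array of the 9 genes with an unadjusted limma p under 0.05, in order of p; 1 point is 1 array (5 stretch, 4 no stretch), bars are group means and whiskers are SDs. The groups are fully apart for Wnt2, Wif1 and Lrp6, and overlap by at least 1 array for the others.

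The R-spondins, agonists made largely by mesenchymal cells, had no p under 0.05. Rspo2, known in dogs as a gene of coat type, was at 4.65, 4.81, 4.19, 4.23 and 4.10 with stretch and between 4.502 and 4.92 without. Stretch replicates 3, 4 and 5 lay below every no-stretch array. Its log2 change was -0.32 (95% confidence interval -0.74 to 0.09). Rspo3, known from blood vessel development, had a change of -0.15. Rspo1, known from ovary development, had a change of 0.03 and had one of the smallest spreads of any gene (within-group SD 0.141, percentile 3.66).

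Of the 8 secreted antagonists 7 had a change below 0, against 50.4% of all genes. However, that of Dkk1 turned positive under both scalings, with the replicate block and without several single arrays (up to 0.062). That of Sfrp2 turned positive with array weights (0.0029), without stretch replicate 1 (0.039) or 3 (0.176) and without the pair of low-weight arrays (0.054). The per-array mean of the 8 did not overlap between the groups (5.47 to 5.78 with stretch, 5.82 to 6.10 without). Wif1 and Dkk2 had p under 0.05, both lower (6.07% of all genes). Wif1, which binds Wnt ligands outside the cell, was at 6.24, 5.62, 6.27, 5.10 and 4.76 with stretch and at 7.04, 6.29, 6.69 and 6.55 without. All stretched arrays were lower, but stretch replicates 1 and 3 were barely under no-stretch replicate 2, and stretch replicates 4 and 5 were the lowest. The change of -1.04 (standard error 0.31, 2.06-fold lower, limma adjusted p = 0.19) was the largest of the 42. It was between -1.21 and -0.84 when single arrays were left out.

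Dkk2, a Dickkopf protein that binds Lrp6 and is known for keeping mouse footpad skin hairless, was at 5.10, 4.57, 5.06, 5.36 and 4.74 with stretch and at 6.17, 5.28, 5.47 and 6.23 without. Only stretch replicate 4 exceeded the lowest no-stretch array. It was 1.76-fold lower, or -0.82 on the log2 scale, with 0.24 as its standard error (limma adjusted p = 0.19), and its p was under 0.05 in all 9 fits that left out 1 array. Dkk3, a divergent Dickkopf protein, had a change of -0.38 (95% confidence interval -0.78 to 0.02, limma adjusted p = 0.41). Dkk1, a secreted inhibitor of Lrp6, was dim (percentile 10.6) with a change of -0.01, which was 0.028 under quantile normalization and 0.062 under median centring.

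Sfrp2, a frizzled-related protein of dermal fibroblasts, was the most variable member. Its log2 level was 8.28, 10.77, 7.73, 10.17 and 9.95 with stretch and 10.08, 8.47, 9.66 and 10.26 without. Low arrays were stretch replicates 1 and 3 and no-stretch replicate 2, so each group held both low and high arrays. Its within-group SD of 1.12 was at percentile 99.2 of all genes, and its change of -0.24 had an interval from -1.54 to 1.07. Sfrp1 and Sfrp5, from the same family, had changes of -0.19 and -0.23, and Notum, an enzyme that removes the lipid of Wnt proteins, of 0.09.

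None of the 4 intracellular genes had a p under 0.05. Axin2, a scaffold of the beta-catenin destruction complex and a widely used readout of canonical signalling, was at 5.57, 5.83, 5.95, 5.22 and 5.25 with stretch and at 5.85, 5.39, 5.81 and 5.67 without. The groups overlapped widely, and the log2 change was -0.11 with a standard error of 0.20 (95% confidence interval -0.55 to 0.32, limma adjusted p = 0.85). That interval holds both a modest fall and a modest rise, so it does not show that Axin2 stayed level.

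Lef1, a DNA-binding partner of beta-catenin in the hair matrix, was at 3.70, 4.01, 4.30, 3.78 and 3.70 with stretch and at 4.20, 4.46, 4.07 and 3.73 without. Both groups spanned nearly the same range. Lef1 had a change of -0.22 with a standard error of 0.19 (95% confidence interval -0.64 to 0.21, limma adjusted p = 0.67). Nkd1 and Nkd2, feedback inhibitors that bind Dishevelled, had changes of 0.05 and -0.30. Nkd2 was at 5.78 in stretch replicate 1 and between 4.63 and 5.11 in the other stretched arrays, against 4.90 to 5.63 without stretch. Without stretch replicate 1 its unadjusted p was under 0.05 (limma adjusted p = 0.34).

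**Figure D3:**
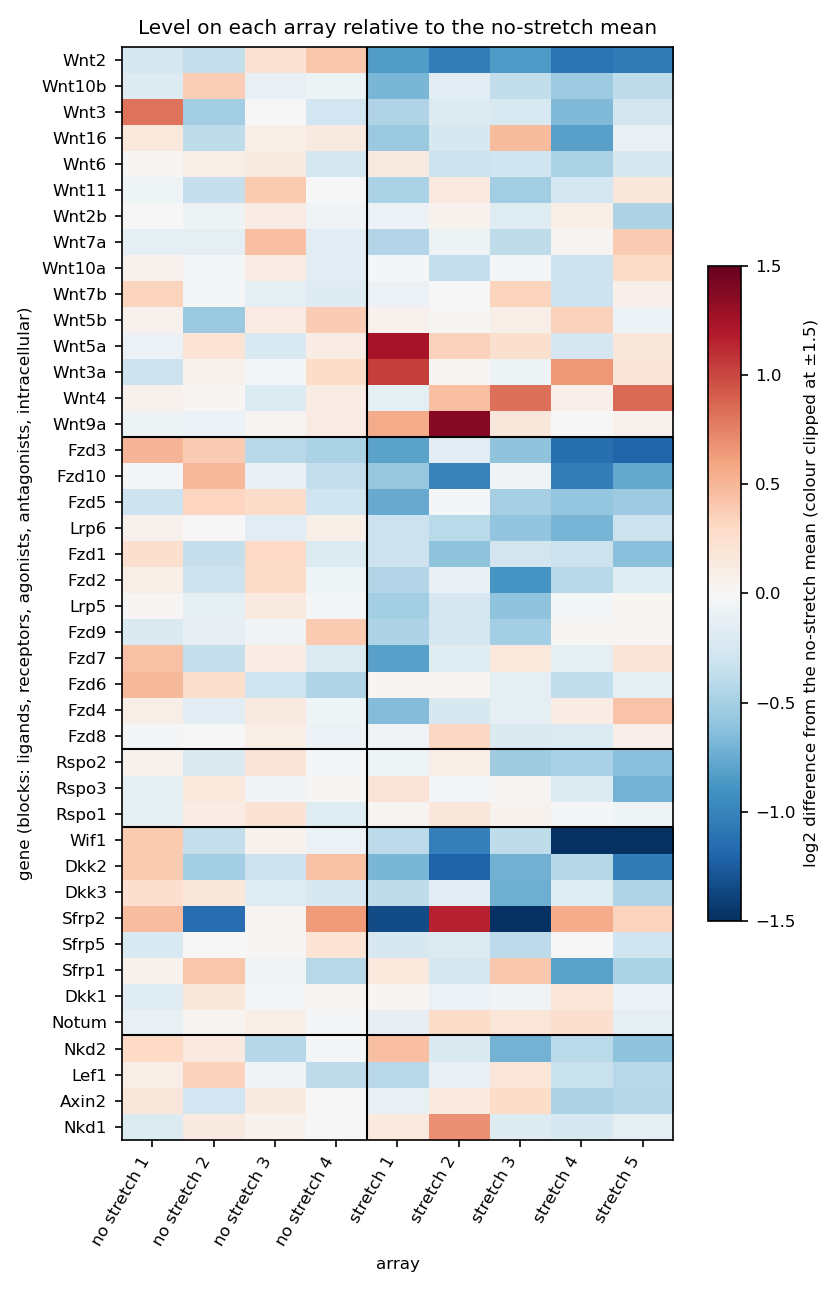
Log2 difference of each of the 42 genes on each array from that gene's no-stretch mean, with arrays in columns and genes in rows, blocked by role; red is higher, blue is lower and the colour is clipped at ±1.5. The receptor block is mostly blue in the stretched arrays, single arrays stand out for Wnt5a, Wnt9a and Wnt3, and Sfrp2 alternates within both groups.

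Other genes of the pathway were taken from lists drawn up with earlier results of these data known, so their counts are descriptive only. Of the 84 names 79 were measured. Their log2 change was below 0 in 59 of 79 (50.4% of all genes), with a median of -0.24 (all genes -0.0034), and 18 had p under 0.05, all lower (6.07% of all genes). Over all genes 2 of the 79 passed (background 0.246%), both lower with stretch: Apcdd1, a membrane protein that inhibits Wnt signalling and is active in hair follicles, and Gpc3, a glypican that binds Wnt proteins at the cell surface.

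Apcdd1 was at 6.87, 6.86, 6.39, 6.49 and 6.32 with stretch and at 8.93, 7.84, 8.44 and 8.00 without. The groups were well apart, with the highest stretched array nearly a log2 unit below the lowest other array. Its log2 change was -1.72 with a standard error of 0.24 (3.30-fold lower, limma adjusted p = 0.021). Gpc3 was at 8.35, 8.21, 8.09, 8.28 and 8.39 with stretch and at 9.40, 9.16, 9.82 and 9.42 without. Its log2 change was -1.19 with a standard error of 0.17 (2.28-fold lower, limma adjusted p = 0.023). Both passed in 5 of the 9 fits that left out 1 array. Some of these passes were narrow. Without stretch replicate 4 the limma adjusted p was 0.048 for Apcdd1 and just under 0.05 for Gpc3. Without no-stretch replicate 2 it was 0.0499 for Gpc3. The adjusted p was 0.074 for each in the absence of stretch replicate 2, 0.058 (Apcdd1) and 0.053 (Gpc3) in that of stretch replicate 5, 0.065 and 0.083 in that of no-stretch replicate 1, and 0.068 for each in that of no-stretch replicate 3. Without the pair of low-weight arrays the adjusted p was 0.060 and 0.058.

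Among the other antagonists 6 of 11 had p under 0.05, all lower (6.07% of all genes), and Apcdd1 alone passed (0.246% of all genes in either direction). Sfrp4, a frizzled-related protein of mesenchymal cells, was at 6.85, 7.56, 8.599, 6.26 and 8.59 with stretch and at 10.75, 9.10, 10.22 and 9.48 without. The groups did not overlap, and the log2 change of -2.32 (4.98-fold lower) was larger than that of any member, with 0.50 as its standard error (limma adjusted p = 0.081). It passed without stretch replicate 3, at an adjusted p of 0.040, while leaving out any other array gave up to 0.25. Sostdc1, an inhibitor of Wnt and BMP signals in ectodermal organs, had a change of -1.04 (limma adjusted p = 0.11).

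Of the other receptors and co-receptors 10 of 11 had a change below 0 (50.4% of all genes). At p under 0.05 there were 4, all lower (6.07% of all genes). Besides Gpc3 these included Lgr4, a receptor of R-spondins, at -1.20 (limma adjusted p = 0.094), and Tnfrsf19, a TNF receptor family member and known Wnt target, at -0.71 (limma adjusted p = 0.29). Of the other ligands, agonists and secretion genes 1 of 9 was lower at p under 0.05, against 6.07% of all genes. It was Porcn, the enzyme that attaches the Wnt lipid, at -0.39. Wls, the Wnt carrier, had a change of -0.35 and Ndp, norrin, of 0.25.

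Of the other intracellular components 3 of 25 had p under 0.05, all lower (6.07% of all genes). They were Tcf7l1, a TCF factor that acts mostly as a repressor in follicle stem cells, at -0.82, the co-repressor Tle3 at -0.62 and Dvl3, a Dishevelled, at -0.49. Of the other target genes 4 of 11 had p under 0.05, all lower (6.07% of all genes). Among them were Sox9, a factor of the follicle bulge, at -1.06, the hair and epidermal factor Dlx3 at -1.22 and Myc at -0.63. Sox9 and Dlx3 also belong to the hair follicle marker lists described further on. None of the 12 planar cell polarity genes had p under 0.05, with Celsr3 at 0.30, Vangl2 at -0.44 and Celsr2 at -0.27.

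**Figure D4:**
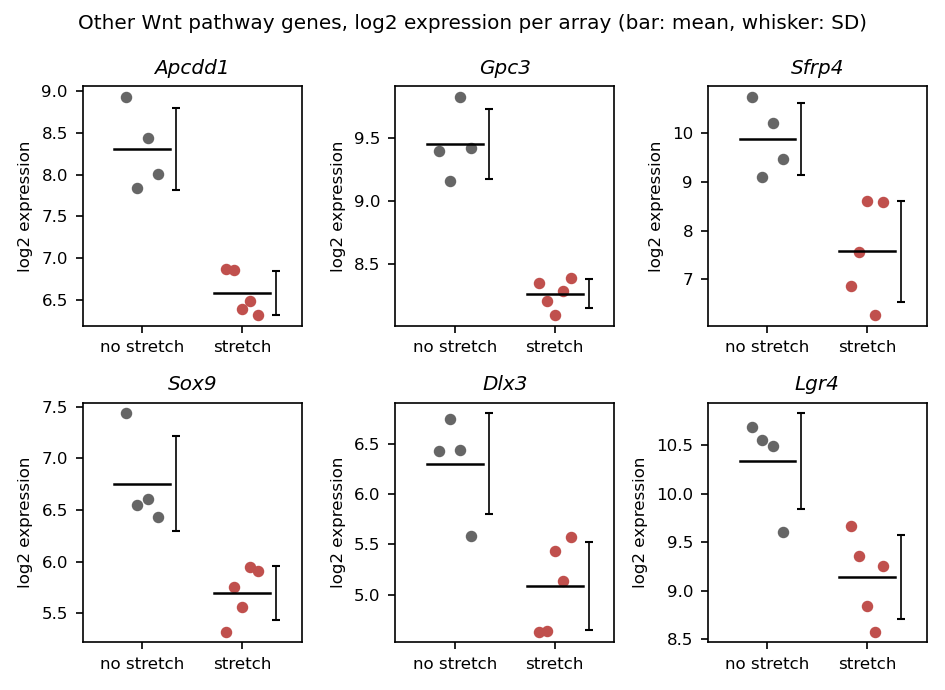
Log2 expression on each array of the 6 other Wnt pathway genes of smallest p; 1 point is 1 array, bars are group means and whiskers are SDs. Apcdd1 and Gpc3 passed the adjusted threshold, and Lgr4 overlaps between the groups by 1 no-stretch array.

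Array means of several marker lists of skin cell types were also apart between the groups. These lists too were drawn up with earlier results of these data known. The counts below stand beside 50.4% of all genes below 0, and 6.07% lower and 6.92% higher at p under 0.05. Of 11 dermal fibroblast markers all had a change below 0, 6 at p under 0.05, and their mean level lay between 12.39 and 12.74 with stretch and between 13.20 and 13.54 without. Dpt passed over all genes (-2.30, limma adjusted p = 0.025), while Col1a2 and Lum did not (-0.82 and -1.28, limma adjusted p = 0.077 and 0.11).

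Of 12 markers of the follicle bulge and outer root sheath 10 had a change below 0, and the mean level lay between 7.47 and 7.63 with stretch and between 7.79 and 8.11 without. Lhx2 passed (-2.28, limma adjusted p = 0.029), while Cxcl14 went the other way (2.20, limma adjusted p = 0.080). The 11 markers of hair matrix and inner root sheath overlapped between groups (4.48 to 4.88 with stretch, 4.67 to 5.68 without), as did the 9 hair shaft markers (3.71 to 4.00 and 3.81 to 4.08) and the 11 dermal papilla markers (5.90 to 6.60 and 5.84 to 6.37). At p under 0.05, 3 bulge markers were lower and 2 higher, 4 hair matrix markers were lower and 1 hair shaft marker was lower. Of the dermal papilla markers 3 were lower and 3 higher, among them Fgf7 (1.81), Crabp1 (1.54) and Hhip (-0.85).

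Adipocyte markers lay between 8.86 and 9.88 with stretch and between 9.91 and 10.52 without, with 8 of 9 below 0. Sebaceous gland markers lay between 8.23 and 8.88 against 9.01 to 10.08, also with 8 of 9 below 0. Melanocyte markers lay between 4.60 and 5.12 against 5.61 to 5.93, with 7 of 8 below 0 and 2, Pmel and Dct, past the threshold. Suprabasal keratinocyte markers were below 0 in 7 of 7 and overlapped (14.52 to 15.86 and 15.85 to 16.46), whereas 6 of 8 basal keratinocyte markers were above 0 (13.32 to 13.79 and 12.63 to 13.56).

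Neutrophil markers were above 0 in 10 of 10 and lay between 10.87 and 12.34 with stretch against 9.16 to 10.19 without. Monocyte and macrophage markers were above 0 in 7 of 7 (12.18 to 14.03 and 11.87 to 13.18), T cell markers below 0 in 5 of 5 (5.02 to 5.66 and 5.56 to 6.18), endothelial markers above 0 in 5 of 7 (8.01 to 8.76 and 7.74 to 8.51), muscle markers below 0 in 6 of 10 (14.27 to 16.33 and 15.31 to 15.92) and cell cycle genes above 0 in 7 of 9 (8.35 to 9.40 and 8.32 to 8.72). The part of any of these cell types in the values of Wnt2, Wif1, Dkk2, the receptors or the other Wnt genes was not tested.

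**Figure D5:**
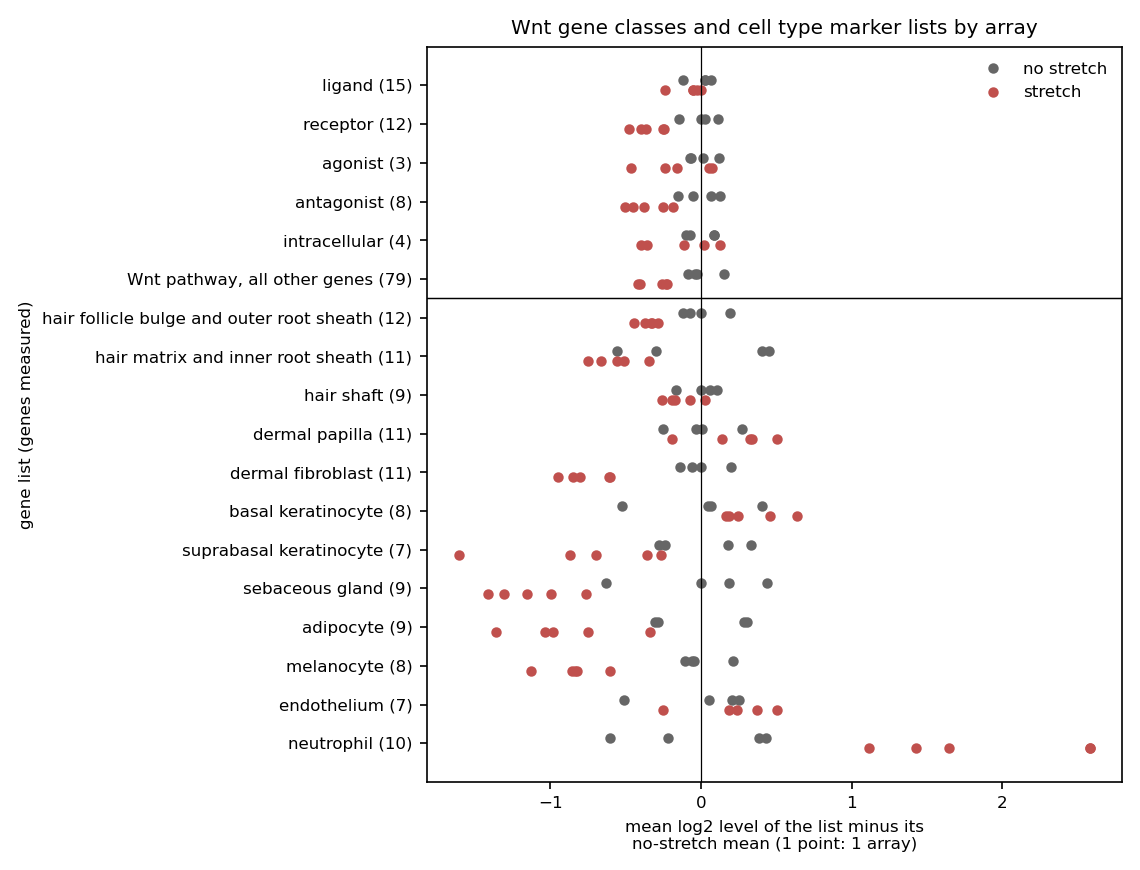
Mean log2 level of each gene list on each array, relative to the list's no-stretch mean (x axis); 1 point is 1 array, grey without and red with stretch, with the Wnt classes above the line and cell type marker lists below it. Receptors, antagonists and the 79 other pathway genes are separated between the groups, as are the markers of follicle bulge, dermal fibroblast, sebaceous gland, adipocyte, melanocyte and neutrophil.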

How the data were processed

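Gene expression was measured on Affymetrix arrays with biotin-labelled cRNA. The deposited table held log2 values of 22206 features on 9 arrays. The authors used RMA and Transcriptome Analysis Console (no version stated), per the submitters' processing notes. RMA can compress low values, so changes of dim genes may be understated, which was not tested here. For build, annotation and filters, the sources used here say nothing.

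From these values 19572 features with 1 gene symbol in the platform annotation were reduced to 19505 genes by the highest mean over all 9 arrays. Groups came from the sample titles. The difference, stretch minus no stretch, was fitted over all genes with lmFit and eBayes of limma 3.58.1 under R 4.3.3. The test was two-sided and had no covariates, and p-values were adjusted over all genes by Benjamini-Hochberg, with a threshold of 0.05. Confidence intervals are 95% intervals of the moderated fit. The fit was tested on simulated data with added changes larger than that of any member, so changes of the members' size were not covered. The members, the lists of other pathway genes and cell type markers and the alternatives were chosen with earlier results of these data known. Members with an unadjusted p under 0.05 or no overlap between groups, and Axin2 and Lef1, are described array by array; of each pathway list up to 3 genes of smallest p are named. Replicate numbers were not used to pair arrays. No arrays were identical. Alternatives covered scaling, dim genes, several features per gene, variance models, array weights, pairing, thresholds and left-out arrays.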

Additional observations from a re-analysis of the deposited data

Results flagged for a closer look

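In 2 of 84 combinations of a gene and a group, 1 array lay far from the rest of its group relative to the group's range; about 1 in 20 would be picked out by chance. Wnt7a was at 3.84 in no-stretch replicate 3 and between 3.22 and 3.25 in the other no-stretch arrays, and without that array its change turned from -0.10 to 0.056. Wnt16 was at 5.59 in no-stretch replicate 2 and between 6.06 and 6.13 in the other 3.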

How the results depend on the processing

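With 9 arrays, the median standard error of 0.21 on the log2 scale limits what can be seen. Of the 42 members none passed at an adjusted p of 0.05 under quantile normalization, median centring, averaged features, all features, a variance trend or the replicate block. The count was 1 without the lowest 25% of genes, with array weights and at an adjusted p of 0.1 (Wnt2 each time), and 1 at an unadjusted p under 0.05 with a 2-fold change (Wif1). Counts over all genes, 48 in the report, were 105, 157, 211 and 556 in these 4 settings and 103 without the lower 50% of genes. They were 221 with the replicate block and 15 without the pair of low-weight arrays. Deviations of same-numbered arrays from their group means correlated at -0.06, -0.02, 0.06 and 0.34 for replicates 1 to 4. Only for replicate 4 was the same-numbered array the best partner. Leaving out single arrays gave 2 to 195 genes and 0 to 1 members. Removing the lower 50% of genes left 14 members, 11 of them below 0, against 43.6% of the genes kept. Of these members 3 (Fzd1, Lrp6 and Wif1) were lower at an unadjusted p under 0.05, against 6.93% of the genes kept. Wnt2, Wnt10b, Fzd3, Fzd5, Fzd10 and Dkk2 were among the members removed as dim. Leaving out single arrays gave 30 to 34 members below 0, against 49.4% to 51.2% of all genes. It gave 6 to 11 lower at an unadjusted p under 0.05, against 5.08% to 6.43% of all genes. Wnt4 was the only member higher at that p, without stretch replicate 1 and without the pair of low-weight arrays. The median change of the members lay between -0.227 and -0.139 in all settings run.

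Changes near 0 turned sign. Under quantile normalization and median centring these were Fzd8 (0.0822 and 0.0485) and Dkk1 (0.028 and 0.0618). With array weights Wnt7a was at 0.0673, Wnt7b at -0.0119, Fzd4 at 0.0204, Fzd8 at 0.0275 and Sfrp2 at 0.00291. With the replicate block Wnt7b was at -0.0152 and Dkk1 at 0.0141. Without the pair of low-weight arrays Wnt7a was at 0.141, Wnt7b at -0.0204, Wnt11 at 0.0125, Fzd4 at 0.0878, Fzd7 at 0.0498, Fzd8 at 0.0243 and Sfrp2 at 0.0537. Leaving out single arrays moved Wnt5b between -0.104 and 0.21, Wnt7a between -0.214 and 0.0563, Wnt7b between -0.081 and 0.115, Fzd4 between -0.228 and 0.041, Fzd6 between -0.27 and 0.0385, Fzd7 between -0.272 and 0.0112, Fzd8 between -0.102 and 0.0311, Rspo1 between -0.0249 and 0.105, Sfrp2 between -0.616 and 0.176, Dkk1 between -0.0666 and 0.0493 and Nkd1 between -0.106 and 0.125. The cause of these turns was not tested. None of the 9 members with p under 0.05 turned sign in any setting that held them.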
